A study of Mus musculus with 20 samples.

Results

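Mouse embryos depleted of Pcgf5 mRNA were set against control embryos of the late 2-cell stage, collected 36 hours after fertilisation began. The comparison uses 4 of the 20 libraries of the series, 2 labelled siPcgf5 and 2 labelled siControl, and covers every gene that passed a filter on low counts, 16980 of the 24411 listed. Superovulated oocytes were fertilised in vitro, and 3 hours after insemination the one-cell embryos received small interfering RNA (siRNA) by electroporation, either targeting Pcgf5 or non-targeting. Each library was made from a pool of 10 embryos cultured in KSOM medium, so no library resolves single embryos or blastomeres. All embryos were thus electroporated, and the labels give no strain and no untreated late 2-cell group. The same siRNA treatments at the morula stage, 72 hours after insemination, gave 2 and 2 further libraries. These share no library with the late 2-cell groups and were used to set the 2 stages side by side. They also entered the same fit of 8 libraries, so the filter and the p-values of the late 2-cell comparison draw on them too. The series also holds 4-cell embryos lacking a repeat element at Pcgf5 and chromatin libraries, not analysed here. Its title poses the question of how Pcgf5 bears on the suppression of zygotic genome activation.

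PCGF5 is a RING-finger protein of a variant Polycomb repressive complex 1 (PRC1). Such complexes pair a PCGF protein with RING1 or RNF2 and place ubiquitin on histone H2A, a mark tied to gene repression. In the mouse, the major wave of zygotic genome activation falls at the late 2-cell stage, when transcripts such as those of the Zscan4 family accumulate for a short time while stored oocyte mRNA is cleared.

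Depth at this stage was 33757884 and 22435872 summed expected counts in siControl and 26053778 and 34631179 in siPcgf5. Levels are CPM, counts divided by the library size after TMM scaling and brought to one common total, and differences are log2 fold changes, siPcgf5 against siControl, with their standard error (SE). A gene was called where edgeR's quasi-likelihood test gave an adjusted p under 0.05. The groups hold 2 libraries each, and nothing in the labels says that the replicates came from separate fertilisations. P-values thus measure only the spread between libraries of a group, estimated over all 8 libraries of both stages. In a pool, fewer cells with a transcript and less transcript per cell cannot be told apart. An exact permutation test of 2 against 2 libraries cannot go below p = 0.333, so single genes were tested only in the fit across all genes.

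The siControl libraries differed from each other more than the siPcgf5 libraries did. Over all genes tested, the median absolute difference on the log2 scale was 0.61 between the siControl libraries and 0.42 between the siPcgf5 libraries. At the morula both medians were 0.32. Between the group means of the late 2-cell stage, the median absolute difference was 0.365. In 11110 genes, 65.4% of those tested, the siControl libraries differed from each other by more than the group means did. Means of 2 libraries differ less than single libraries do, even with no knockdown effect. The 0.365 and the 65.4% thus do not weigh the knockdown against the spread.

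One library stood apart, siControl late 2-cell replicate 1. Lyz2, the lysozyme of macrophages, was at 312 CPM there and at 2.05 CPM in the other control, against 1.36 and 3.37 CPM in siPcgf5. The summed level of 12 macrophage genes, a list chosen after their values were seen, was 564 CPM in that library and 19.3, 25.4 and 22.7 CPM in the other 3, in the order siControl replicate 2, siPcgf5 replicate 1 and siPcgf5 replicate 2. Adgre1 and Tyrobp, which mark macrophages, had 5.23 and 17.6 CPM in siControl replicate 1 and no count in the other 3 libraries. Without Lyz2, the 17 blood and immune markers summed to 267 and 252 CPM in siControl and 332 and 358 CPM in siPcgf5, most of it from the globin gene Hba-a2. Y-linked genes summed to 61.7 CPM in siControl replicate 1 and 155 to 233 CPM in the other 3. The 20 cumulus and granulosa markers summed to 45.5 to 61.5 CPM over the 4 libraries, with 11 to 14 of them counted in each and 3 at 0 in all. Of these Tnfaip6 reached 36.9 CPM in siPcgf5 replicate 1, and Star was at 1.35 and 2.76 CPM in siControl and 0.0317 and 0.706 CPM in siPcgf5. The 21 sperm markers summed to 104 to 138 CPM, with 3 at 0 in all 4 libraries. The part of these differences in the results was not tested, and values without siControl replicate 1 are given beside lists that turn on it. Leaving that library out also moved the median log2 fold change over all genes, from -0.008 to 0.073.

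**Figure D1:**
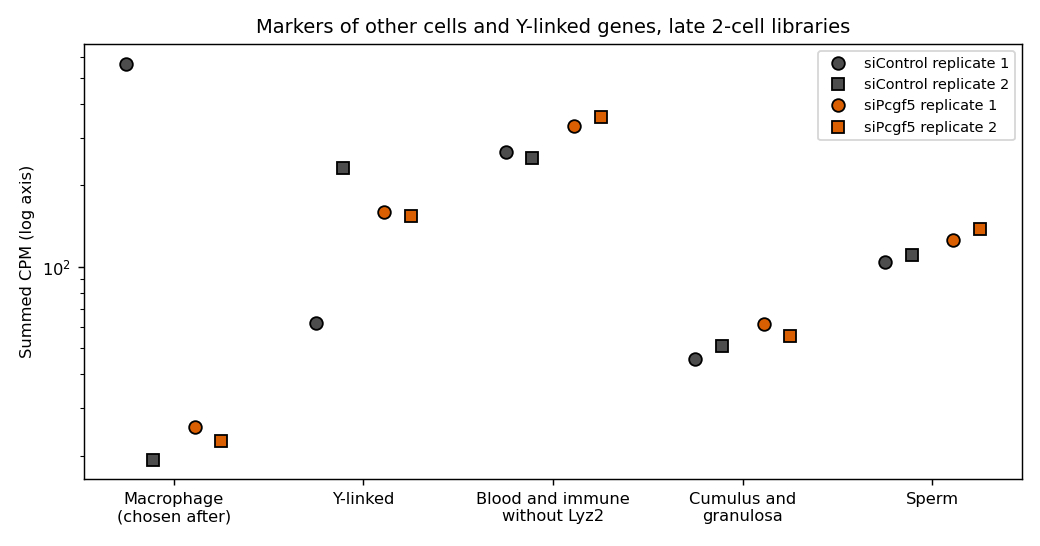
Summed CPM (log axis) of marker lists of other cell types and of Y-linked genes in the 4 late 2-cell libraries, 1 point per library, circles for replicate 1 and squares for replicate 2. siControl replicate 1 holds 564 CPM of macrophage genes against 19.3 to 25.4 CPM in the other 3 libraries, and 61.7 CPM of Y-linked genes.

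The labelled stage was checked against genes of the 2-cell embryo and the oocyte. Zscan4f stood at 620 and 633 CPM in siControl and 799 and 1240 CPM in siPcgf5, and Zfp352, a 2-cell zinc finger gene, at 292 and 426 against 430 and 519 CPM. The oocyte transcripts Bmp15 and Gdf9 were still present, at 303 to 733 and 59.2 to 115 CPM.

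The Pcgf5 gene spans chr19:36348329-36460970 in the GRCm38.p6 annotation, the assembly that mm10 names. Its level was 310 and 806 CPM in the siControl libraries and 53.5 and 89.7 CPM in the siPcgf5 libraries. Both knockdown libraries lay below both controls, and the controls themselves differed by more than the knockdown libraries did. The means were 558 ± 351 CPM (SD, n = 2) and 71.6 ± 25.6 CPM (SD, n = 2), and the second is 12.8% of the first. The log2 fold change of -2.96 (SE 0.443) did not pass edgeR's test over all genes, with an adjusted p of 0.0789. It passed without siControl replicate 1, at -3.45 with an edgeR adjusted p of 0.0440, and with DESeq2, at -2.99 with an adjusted p of 6.12e-09. It did not pass without siPcgf5 replicate 1 (0.623), without siPcgf5 replicate 2 (0.364) or in the edgeR fit of only the 4 late 2-cell libraries (0.590). RefSeq lists 3 start sites for Pcgf5 and the deposited counts sum all its transcripts, so which of them was present was not examined.

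The PCGF family was then compared per transcript length, in TPM, which scales abundances per base of transcript to one total in every library. Pcgf5 held 21.2% and 36.6% of the summed TPM of the 6 PCGF genes in siControl, and 3.83% and 8.24% in siPcgf5. The most abundant paralogue in each library was Pcgf1 or Bmi1, or in siControl replicate 2 Pcgf5 itself at 931 TPM. Pcgf1, of the BCOR-containing variant complex, was at 599 and 877 TPM in siControl and 943 and 533 TPM in siPcgf5, with overlapping groups. Bmi1, of canonical PRC1, was at 626 and 550 TPM against 400 and 442 TPM. Pcgf6 was at 240 and 173 TPM against 128 and 155 TPM. Pcgf3, the paralogue most like Pcgf5, stood at 12.9 and 10.4 TPM against 9.35 and 13.6 TPM. Pcgf2 was near 0, at most 0.53 TPM in any late 2-cell library. None of the other 5 was called, and the log2 fold changes in CPM were 0.12 (SE 0.308) for Pcgf1, -0.37 (SE 0.203) for Bmi1, -0.43 (SE 0.217) for Pcgf6 and 0.09 (SE 0.279) for Pcgf3.

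**Figure D2:**
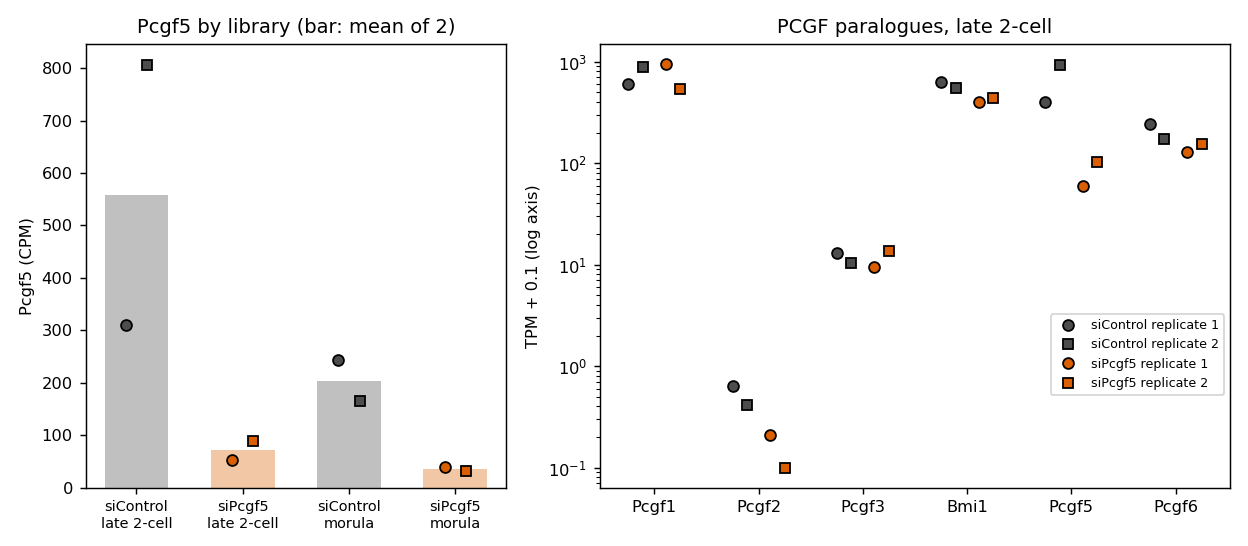
Left, Pcgf5 in CPM by library at both stages, with bars for the mean of 2 libraries. Right, TPM plus 0.1 (log axis) of the 6 PCGF genes in the late 2-cell libraries. Pcgf5 is at 310 and 806 CPM in siControl and 53.5 and 89.7 CPM in siPcgf5, while the points of Pcgf1 and Pcgf3 overlap between groups.

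No partner of PCGF5 in its complex was called. Rnf2, the ubiquitin ligase subunit, was at 217 and 296 CPM in siControl and 221 and 301 CPM in siPcgf5, a log2 fold change of 0.03 (SE 0.229). Rybp had a value of -0.01 (SE 0.201), Yaf2 of 0.03 (SE 0.281) and Auts2, the scaffold of PCGF3 and PCGF5 complexes, of -0.07 (SE 0.514). Ring1 was at 0 to 0.0746 CPM in these libraries. Of 25 catalytic and variant PRC1 genes 12 had positive values, with a median of -0.01, and none was called. Max, a partner of the PCGF6 complex, had the smallest p, at 52.5 and 38.5 CPM against 25.1 and 32.3 CPM, a value of -0.66 (SE 0.277, edgeR adjusted p 0.886). Canonical PRC1 genes had a median of -0.07 over 10 genes with 4 positive, which without siControl replicate 1 was 0.26 with 9 positive. PRC2 genes had a median of -0.06 over 13. H2A deubiquitinases with their partners had a median of -0.05 over 17, which was 0.04 without siControl replicate 1. EdgeR and DESeq2 called none of these. Asxl3, a cofactor of the H2A deubiquitinase BAP1, was at 6.11 and 5.49 CPM in siControl and 2.19 and 1.69 CPM in siPcgf5.

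Over all genes, 1 was called higher and 1 lower, 0.00589% each and 0.0118% together of those tested. Without siControl replicate 2 the numbers were 5 and 8, or 40 and 23 when the filter on low counts was applied again to the remaining libraries, and without either siPcgf5 library they were 0 and 0. Without siControl replicate 1 they were 2 and 3, or 2 and 4. At an unadjusted p under 0.05 there were 465 higher (2.74%) and 482 lower genes (2.84%), together 5.58%. Groups did not overlap in 2634 genes with higher and 2669 with lower siPcgf5 values, 15.5% and 15.7% of all genes. Positive fold changes made up 49.0%, and the median over all genes was -0.008.

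The gene that rose was Gm5891, a protein-coding predicted gene on chromosome 7 at 21909434 to 21921291. It had 2 and 3 counts in the siControl libraries and 766 counts in each siPcgf5 library, which is 0.0449 and 0.112 CPM against 24.2 and 18.0 CPM. The log2 fold change was 8.12 (SE 0.702), with an edgeR adjusted p of 0.0109. At the morula all 4 libraries were at or below 0.0256 CPM, so that this transcript was found at this level only in the siPcgf5 late 2-cell libraries among the 8 compared. The gene that fell was Serpinb6c, a clade B serpin on chromosome 13 at 33879816 to 33905726. It had 55 and 22 counts in siControl and none in either siPcgf5 library, at least 26.7-fold lower against a floor of 3 counts over the group, with an edgeR adjusted p of 0.0387. Its control level was low, 1.24 and 0.821 CPM. At the morula Serpinb6c was higher, at 30.7 and 36.7 CPM in siControl and 19.1 and 26.0 CPM in siPcgf5. Both calls were lost when either siPcgf5 library was left out, with edgeR adjusted p from 0.258 to 0.317 (0.167 to 0.238 with the filter applied again), and the Serpinb6c call also without siControl replicate 1 (0.0729, or 0.0567).

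Below these calls, genes were kept whose groups did not overlap and that reached 10 CPM in the higher group, without predicted genes and pseudogenes. Of these, the 12 per direction with the smallest p were taken. Those with lower siPcgf5 values included Pcgf5 and had adjusted p from 0.0577 to 0.655, and those with higher values from 0.274 to 0.670. Since a low p and groups that do not overlap chose them, their separation is a description.

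Malat1, a nuclear long noncoding RNA, was at 322 and 278 CPM in siControl and 105 and 101 CPM in siPcgf5, 34.4% of the control mean. Its log2 fold change was -1.54 (SE 0.208) with an edgeR adjusted p of 0.0577, and the pairs of libraries lay close together within each group. Pdcl3, a phosducin-like cofactor of protein folding, was at 60.7 and 55.6 CPM against 19.5 and 21.8 CPM, a value of -1.49 (SE 0.207, edgeR adjusted p 0.0630). Both passed with DESeq2, at adjusted p of 1.79e-10 and 5.29e-09. Leaving out siControl replicate 1 made Malat1 pass with edgeR, at -1.39 and an adjusted p of 0.0440, and leaving out siControl replicate 2 made both pass, at adjusted p of 0.0249 and 0.0285. Without siPcgf5 replicate 1 or 2 neither passed, at edgeR adjusted p of 0.518 and 0.364 for each gene, nor did either in the fit of only the 4 late 2-cell libraries (0.728).

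Cnot6l encodes a deadenylase of the CCR4-NOT complex, which shortens the tails of maternal mRNA. It was at 134 and 104 CPM in siControl and 58.0 and 48.1 CPM in siPcgf5, a log2 fold change of -1.17 (SE 0.271). Gphn, the scaffold protein gephyrin, was at 34.7 and 29.9 CPM against 12.2 and 15.0 CPM. Uba3, the catalytic subunit of the NEDD8-activating enzyme, was at 128 and 93.8 CPM against 65.2 and 56.9 CPM. Ddx58, the cytosolic RNA sensor RIG-I, was at 56.1 and 48.8 CPM against 28.4 and 22.6 CPM. In each of these 4 genes both siPcgf5 libraries lay below both controls, and none was called. The others in this direction were Marcks, a membrane-bound substrate of protein kinase C, Sdhaf4, an assembly factor of succinate dehydrogenase, Mmadhc of cobalamin metabolism, Sdcbp (syntenin) and Mageb16, with values from -0.91 to -1.29.

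On the higher side Dnajb1, a co-chaperone of Hsp70, was at 37.9 and 32.8 CPM in siControl and 75.4 and 73.8 CPM in siPcgf5. Its log2 fold change was 1.08 (SE 0.205), with an edgeR adjusted p of 0.274 and a DESeq2 adjusted p of 0.000825. Tuft1 (tuftelin) was at 4.83 and 6.16 CPM against 11.1 and 16.7 CPM, the largest of the 12 values at 1.34 (SE 0.373). Scd1, the stearoyl-CoA desaturase, was at 32.5 and 40.6 CPM against 70.1 and 61.2 CPM. The siPcgf5 means of these 3 genes were 211%, 253% and 180% of the control means. Ak4, a mitochondrial adenylate kinase, Mylpf, a myosin light chain, Frrs1, a ferric-chelate reductase, and Ubac1, a subunit of a ubiquitin ligase, had values from 0.91 to 1.15. Myg1, Myadm and BC028528 had values of 1.02, 1.12 and 1.09. The remaining genes of this direction were the ribosomal protein genes Rpl26 and Rpl41.

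**Figure D3:**
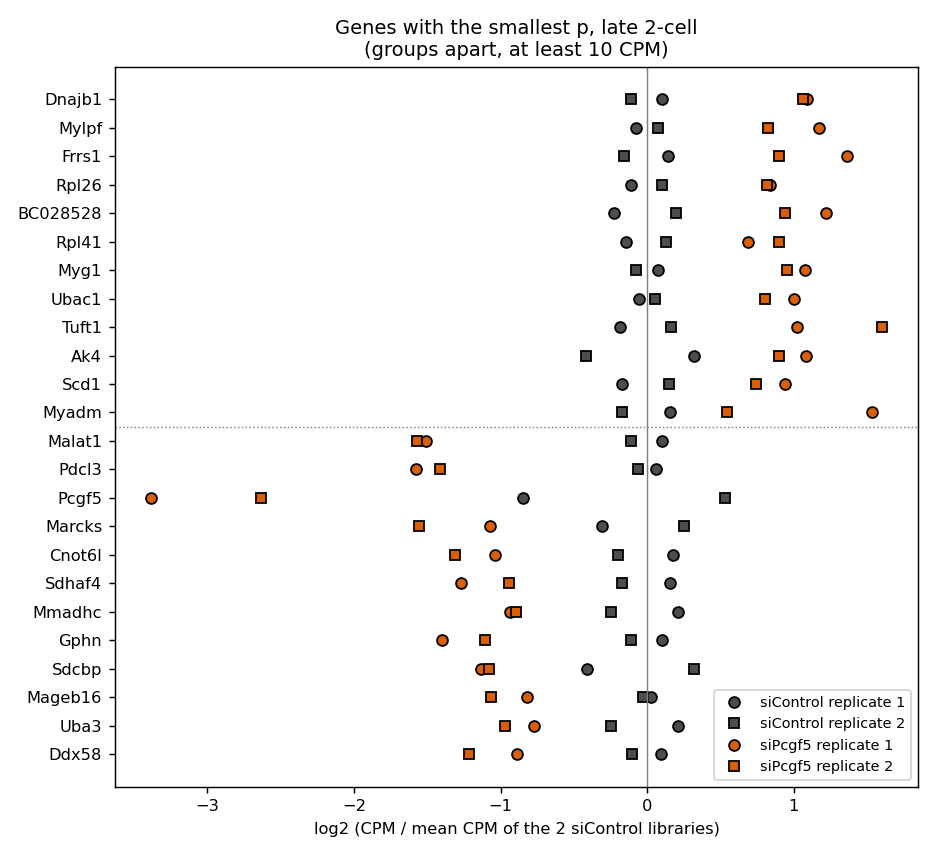
Log2 of each library's CPM over the mean CPM of the siControl libraries, for 12 genes per direction. These had the smallest p among genes with groups apart and at least 10 CPM in the higher group, predicted genes left out. Malat1 and Dnajb1 show close pairs in both groups, while the siControl points of Pcgf5 lie far apart, at 310 and 806 CPM.

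DESeq2, on the same counts, called 27 genes higher and 45 lower, 0.159% and 0.265% of all genes. Both edgeR calls were among them. Of these 72 genes, 17 were under 1 CPM in the higher group, 42 were at 1 to 10 CPM and 13 were at 10 CPM or more. The lower calls included the macrophage genes C1qc, at 9.32 CPM in siControl replicate 1 and 0 in the other 3 libraries, and C3ar1, at 13.2 CPM there and at most 0.0373 CPM in the others, so some rest on the library that stands apart. Among the 13 were Pcgf5, Malat1, Pdcl3, Cnot6l, Gphn, Dnajb1 and Rpl26. Another was the predicted gene Gm595, at 24.1 and 25.4 CPM in siControl and 5.19 and 2.75 CPM in siPcgf5. Its DESeq2 log2 fold change was -2.67, with a DESeq2 adjusted p of 4.16e-07.

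Genes of zygotic genome activation were examined as 3 lists. All 7 Zscan4 and Tcstv genes in the files had higher levels in both siPcgf5 libraries than in both controls, against a background of 15.5%, with a median log2 fold change of 0.70, but neither edgeR nor DESeq2 called any. Zscan4 genes encode zinc finger and SCAN domain proteins expressed in a burst at this stage, except that Zscan4a is annotated as a transcribed pseudogene. Zscan4c was at 398 and 523 CPM in siControl and 623 and 820 CPM in siPcgf5, and Zscan4a at 77.0 and 140 against 218 and 225 CPM. The smallest p belonged to Zscan4d, at 229 and 336 CPM against 493 and 508 CPM, with an edgeR adjusted p of 0.889. Tcstv3 was at 62.1 and 80.7 CPM against 93.3 and 164 CPM, and Tcstv1 at 53.6 and 39.6 against 67.5 and 55.4 CPM. All 7 values stayed positive when any 1 library was left out, with a median of 0.70 without siControl replicate 1 and of 0.44 without siPcgf5 replicate 2, the lowest of the 4.

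The Zscan4 genes form a cluster of copies on chromosome 7, and Tcstv1 and Tcstv3 lie on chromosome 13. Promoters of 4 copies are shown because their values had the same sign, and that of Zscan4a, whose value was also positive, is not shown. How the counting divided reads between copies was not examined, so their values are uncertain and may not be independent. Windows of 60 bases around a shared TATA-like motif, TATAAAAG in capitals, were taken from RefSeq promoters of GRCm38.p6 in the direction of the gene.
Zscan4b: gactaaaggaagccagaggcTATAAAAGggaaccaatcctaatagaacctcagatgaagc
Zscan4c: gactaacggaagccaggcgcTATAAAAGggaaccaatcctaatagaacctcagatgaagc
Zscan4d: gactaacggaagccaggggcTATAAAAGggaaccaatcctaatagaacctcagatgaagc
Zscan4f: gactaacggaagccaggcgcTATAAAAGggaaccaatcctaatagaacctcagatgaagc
They lie at chr7:10905042-10905101 (minus strand), chr7:11005671-11005730 (plus), chr7:11166174-11166233 (minus) and chr7:11397864-11397923 (plus). Of 60 bases, Zscan4f shared 60 with Zscan4c, Zscan4d shared 59 and Zscan4b shared 57. The windows were cut around the motif, so its presence in 4 of 4 Zscan4 promoters was given in advance. Searched on both strands after the windows had been seen, the motif was in 560 of 32851 promoters of the table, 1.70%. In the direction of the gene it was in 389, 1.18%, which describes the letters and not a binding site.

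The other activation lists were less uniform. Of 10 Usp17l and Tdpoz genes, multi-copy families whose reads can also be split, 8 had positive values, with a median of 0.17. The median was 0.006 with 5 positive without siControl replicate 1, and 0.008 with 5 positive without siPcgf5 replicate 2. Usp17lc, a deubiquitinase gene, was at 22.2 and 22.5 CPM in siControl and 36.5 and 43.8 CPM in siPcgf5, and Usp17la at 34.1 and 31.2 against 31.1 and 73.2 CPM. Of 31 genes of a wider 2-cell activation list, which also holds Usp17la and Usp17lc, 18 were positive, with a median of 0.17, and without siControl replicate 1 these numbers were 16 and 0.02. Neither edgeR nor DESeq2 called any gene of these lists. The Obox homeobox genes had a median of -0.16 over 6 genes, which was 0.55 without siControl replicate 1. Obox1 was at 579 CPM in that library and at 152 CPM in the other control, against 316 and 189 CPM in siPcgf5.

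Ribosomal protein genes had positive values across nearly the whole list, while edgeR called none and DESeq2 called Rpl26 (adjusted p 0.0435). Of 84 genes 83 had positive values, against 49.0% of all genes, with a median of 0.37, and in 40, or 47.6% against 15.5% of all genes, both siPcgf5 libraries lay above both controls. Rpl26 was at 23.0 and 26.6 CPM in siControl and 44.4 and 43.8 CPM in siPcgf5, and Rpl41 at 1269 and 1528 against 2251 and 2614 CPM. The summed level was 14320 and 21110 CPM in siControl and 24220 and 22340 CPM in siPcgf5, so siControl replicate 1 was the lowest library. Without it the median was 0.12, against 0.073 over all genes, and 65 of 84 values were positive. Without siControl replicate 2 the median was 0.69. At the morula the median was -0.09 and 14 were positive. Fold changes also went with transcript length, with medians of 0.10 in the shortest of 5 length classes and -0.08 in the longest, and the part of length in the ribosomal values was not tested.

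Stored maternal transcripts had mostly negative values, a lean that was lost without 1 library. Of 58 oocyte and maternal genes 12 had positive values, against 49.0% of all genes, with a median of -0.28, and in 18, or 31.0% against 15.7% of all genes, both siPcgf5 libraries lay below both controls. Without siControl replicate 1 the median was 0.06 and 35 were positive. That is near the background of the same fit, a median of 0.073 with 9408 of 16980 genes positive. Btg4, an adaptor that recruits CCR4-NOT to maternal mRNA and chosen after its values were seen, was at 1706 and 406 CPM in siControl and 927 and 555 CPM in siPcgf5. H1foo, the oocyte linker histone, was at 131 and 33.8 CPM against 33.8 and 33.9 CPM, with the first control alone above the rest. Figla, an oocyte transcription factor, had close pairs, at 6.22 and 6.04 CPM against 2.06 and 1.44 CPM, a log2 fold change of -1.81 (SE 0.598, edgeR adjusted p 0.772). Of 40 genes of maternal mRNA clearance 16 were positive, with a median of -0.16, which was -0.002 with 20 positive without siControl replicate 1. Besides Cnot6l, Ythdf3, a reader of methylated adenosine, was at 130 and 110 CPM against 82.7 and 82.7 CPM, and Pan3, a deadenylase subunit named after its values were seen, at 70.3 and 53.02 against 38.6 and 42.5 CPM.

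Among the lists of later lineages and Polycomb targets, the Polycomb targets were low at this stage. Their mean log2 CPM was -0.555 to 0.031 by library, against 2.35 to 2.479 over all genes and 3.607 to 3.805 for pluripotency regulators. Developmental Polycomb targets, transcription factors that carry Polycomb marks in many embryonic cells, had positive values in 31 of 81 tested genes, with a median of -0.21, and 0.00 without siControl replicate 1. The list holds 114 genes, of which 33 did not pass the filter on low counts. Its summed level was 210 and 161 CPM in siControl and 166 and 144 CPM in siPcgf5. Hoxa2 had 26 and 39 counts in siControl and none in siPcgf5, and Otx1 was at 0.898 and 0.634 against 0 and 0.0471 CPM. Pluripotency regulators had a median of 0.14, with 17 of 28 positive. Tbx3, a T-box factor, was at 3.95 and 3.40 CPM in siControl and 9.25 and 8.97 CPM in siPcgf5, a log2 fold change of 1.31 (SE 0.276, edgeR adjusted p 0.390). Primitive endoderm genes were positive in 6 of 19 cases, with a median of -0.20, and trophectoderm genes in 15 of 31, with a median of -0.004. Gata6, a primitive endoderm factor, was at 5.91 and 6.01 CPM against 4.18 and 3.13 CPM. EdgeR called none of the genes in these lists, and DESeq2 called Tbx3 (adjusted p 0.0182). Imprinted genes had a median of 0.00 over 49 genes. Dcn (decorin) had no count in siControl and 46 and 55 in siPcgf5, and was at least 32.4-fold higher against the floor, without passing edgeR's test (adjusted p 0.772).

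**Figure D4:**
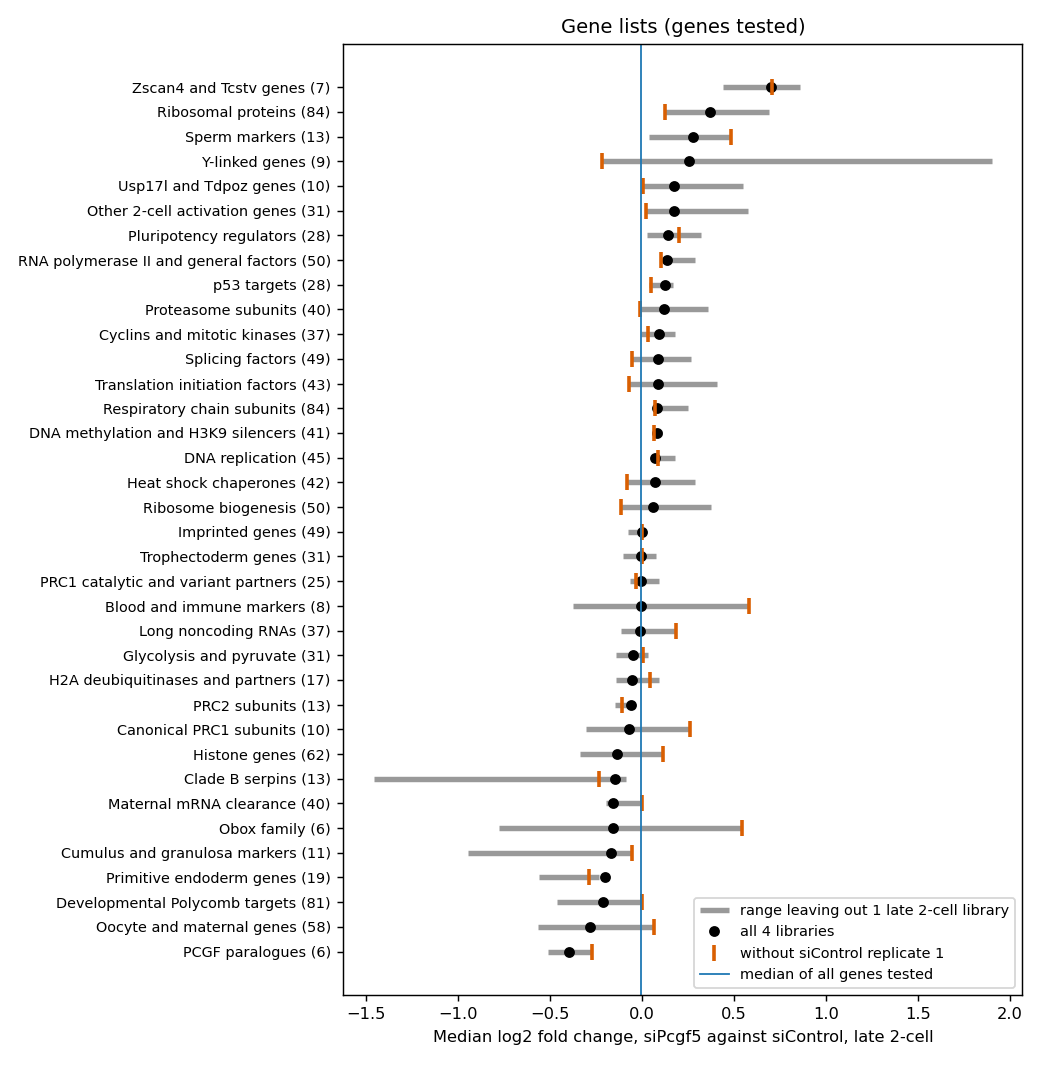
Median log2 fold change at the late 2-cell stage of each gene list, with the number of genes tested in brackets, as black points, and the range when 1 of the 4 libraries is left out as grey bars. The orange mark is the value without siControl replicate 1. The blue line is the median of all genes in the full fit, -0.008, which was 0.073 without siControl replicate 1. The median of the Zscan4 and Tcstv genes is 0.70 with and without that library, and that of the maternal genes moves from -0.28 to 0.06.

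The knockdown at the late 2-cell stage was last set beside that at the morula. At the morula no gene was called by edgeR, with 716 at an unadjusted p under 0.05, 4.22% of all genes. Pcgf5 was at 243 and 165 CPM in siControl and 38.8 and 32.0 CPM in siPcgf5 morulae, a log2 fold change of -2.53 (SE 0.436), and the effects at the 2 stages differed by -0.43 (SE 0.583). No difference between the stage effects was called over all genes, with 842 at an unadjusted p under 0.05, 4.96%, so no gene was shown to respond at 1 stage alone.

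Of the 12 genes with lower values, which include the siRNA target Pcgf5, 11 had negative values at the morula too. Of the 12 with higher values 6 were positive there. Of all genes 43.6% were positive at the morula, so most were not, and the median was -0.013. In the lower set 3 had an unadjusted p under 0.05 at the morula. Of all genes tested, of any level, 2.72% were lower there at that p. The 3 were Pcgf5, Cnot6l, at 14.8 and 20.5 CPM against 11.2 and 8.44 CPM with a value of -0.84, and Gphn, with a value of -1.13. Malat1 was at 1701 and 2119 CPM against 1699 and 1743 CPM at the morula, a value of -0.15 (SE 0.203), with overlapping groups. Its difference between the stages was -1.39 (SE 0.288, edgeR adjusted p 0.410). Over all genes, 16 were lower at an unadjusted p under 0.05 at both stages, 3.32% of those at the late 2-cell stage and 3.46% of those at the morula. The higher genes shared 6, 1.29% and 2.36%, and the background of higher genes at the morula was 1.5%. P-values of both stages draw on 1 shared estimate of the spread, so these overlaps are not independent agreement between the stages.

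**Figure D5:**
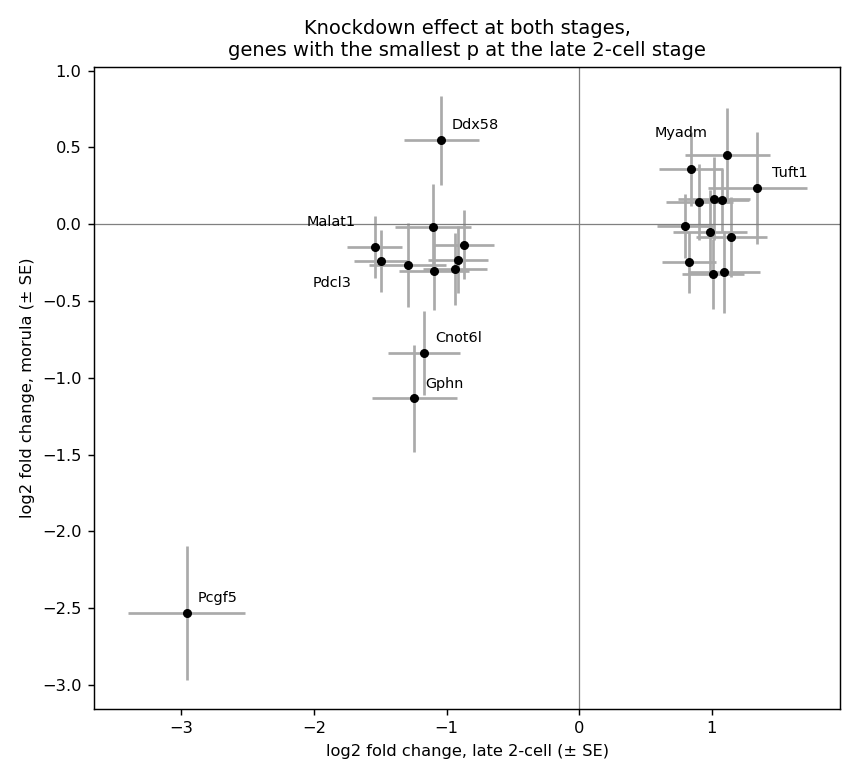
Log2 fold change of siPcgf5 against siControl at the late 2-cell stage (x axis) and at the morula (y axis), with SE. The 24 genes are the 12 per direction with the smallest late 2-cell p among genes with groups apart. They reached at least 10 CPM in the higher group, and predicted genes were left out. Pcgf5 lies at -2.96 and -2.53, Cnot6l and Gphn are negative on both axes, and Malat1 lies at -1.54 and -0.15.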

How the data were processed

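Messenger RNA was measured in pools of 10 embryos with the SMART-Seq v4 PLUS kit, per the labels' protocols. The deposited files hold expected counts per gene, which the authors did not normalise, and TPM scaled to a common total in each library, both per the file headers. Per the submitters' processing notes, the tools were Bowtie2 2.4.5, STAR 2.7.10 and RSEM 1.3.3 and the build was mm10, in an order that is not stated. Read filters are not given in the sources used here. Of 24411 symbols, 24317 matched the RefSeq table of GRCm38.p6.

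Expected counts of the 8 knockdown libraries were rounded, filtered with filterByExpr (minimum count 10), scaled by TMM and fitted with edgeR 4.0.16 in R 4.3.3 with 1 coefficient per group and no block (two-sided tests, Benjamini-Hochberg adjustment over all genes). The 8 libraries share the estimate of the spread, with a common coefficient of variation of 0.46. Expected counts summed to between 22435872 and 55620137 per library. Floors of 3 counts cover counting error only, since PCR reads without molecular identifiers are not independent molecules. Libraries of a group were not duplicates of each other.

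The text names Pcgf5, every called gene, the 12 genes per direction with the smallest p among those with groups apart and at least 10 CPM (predicted genes left out), the 2 members of each list with the smallest p, and the PCGF genes with their partners. Not all of these are printed. The members, the 36 gene lists and the rule were chosen with earlier results of these data known. On simulated counts for this comparison (16403 genes), only genes with a mean over 50 counts at this stage were changed. Changes of 1, 2, 3 and 4 on the log2 scale were found in 4%, 46%, 94% and 90% of 50 cases each. There were 15 false calls beside the 2, 23, 47 and 45 changes found, and changes in genes with fewer counts were not simulated.

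Alternatives were DESeq2 1.42.0, its size factors in edgeR, no filter, limma 3.58.1 with trend on log2(TPM + 1), only the 4 late 2-cell libraries, the replicate number as a block, and leaving out each library, for which a second way was added after seeing the data.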

Additional observations from a re-analysis of the deposited data

How the results depend on the processing

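With 2 libraries per group, counts of calls moved with most choices, so neither count is firm. Calls higher and lower were 2 and 3 with DESeq2 size factors, 14 and 14 without the filter, 27 and 45 with DESeq2, 8 and 6 with limma, 1 and 0 with only the 4 late 2-cell libraries, and 0 and 1 with the replicate block. Leaving out 1 library can be done in 2 ways, and the choice between them was changed after the first counts had been seen. Leave-one-out fits were first run with the filter applied again to the remaining libraries, and were then repeated on the genes of the full fit, so that only the library changed. With the filter applied again the calls were 2 and 4 without siControl replicate 1, 40 and 23 without siControl replicate 2, and 0 and 0 without either siPcgf5 library. On the genes of the full fit they were 2 and 3, 5 and 8, and 0 and 0. Over both ways the range was 0 to 40 higher and 0 to 23 lower. In the largest case, 2 of the called genes lay outside the genes of the full fit, and the cause of the rest of the gap was not tested. The Gm5891 call was lost with the replicate block (adjusted p 0.0671), and the Serpinb6c call with the block (0.102), limma (0.137) and only the 4 late 2-cell libraries (edgeR, 1). A lone library is assumed to vary like the other groups.

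Pcgf5 kept its direction in every fit. Its value was -2.99 with DESeq2, -2.85 with the replicate block, both past the threshold, and -3.45 to -2.14 leaving out 1 library. The edgeR adjusted p was 0.2 without the filter and 0.0762 with DESeq2 size factors, and limma's was 0.0639. Deviations of same-numbered libraries were hardly correlated (-0.038 at the late 2-cell stage and 0.002 at the morula). With 2 libraries per group, these values cannot tell whether same-numbered libraries were made together, and the labels do not say.

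Ring1, counted at this stage in siControl replicate 2 alone, reached 0 without it (-4.49 to 0). Signs turned when 1 library was left out for Scmh1 (-1.34 to 0.24), Cbx8 (-0.94 to 0.004), Usp17la (-0.071 to 1.17), Obox2 (-1.16 to 0.33), Obox1 (-1.23 to 0.77), H1foo (-1.98 to 0.043), Nr0b1 (-7.28 to 2.34), Lyz2 (-7.05 to 0.25), Pcgf1 (-0.36 to 0.50), Pcgf3 (-0.18 to 0.31), Auts2 (-0.47 to 0.47), Fbrs (-0.39 to 0.16), Rnf2 (-0.21 to 0.25), Rybp (-0.052 to 0.041), Yaf2 (-0.30 to 0.45) and Btg4 (-1.24 to 0.91). With limma the values were -0.032 for Pcgf1, -0.033 for Pcgf3, -0.079 for Rnf2 and -0.040 for Yaf2, and with DESeq2, or its size factors in edgeR, -0.004 for Rnf2 and -0.003 for Yaf2. Of 360 list medians, 325 moved by less than the spread between replicates. The median over all genes ran from -0.062 with limma to 0.073 without siControl replicate 1.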

Other observations

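Several lists of the transcription and energy machinery had positive medians, and neither edgeR nor DESeq2 called any of their genes. Of 50 RNA polymerase II and general transcription factor genes 33 had positive values, with a median of 0.14, and in 15 both siPcgf5 libraries lay above both controls, 30.0% against 15.5% of all genes. Polr2i, a small subunit of RNA polymerase II, was at 30.7 and 39.8 CPM in siControl and 66.6 and 53.3 CPM in siPcgf5, and Taf11, of the TFIID complex, at 33.7 and 43.3 against 78.9 and 54.5 CPM. Respiratory chain genes were positive in 60 of 84 cases, with a median of 0.08, and proteasome genes in 32 of 40, with a median of 0.12. Of all genes 49.0% were positive. The proteasome median was -0.01 without siControl replicate 1, and that of ribosome biogenesis genes went from 0.06 to -0.12. In the same fit the median was 0.103 for the RNA polymerase II list, and 0.073 for respiratory chain genes and for all genes alike.

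Heat shock genes had a median of 0.07 over 42 genes, which was -0.08 without siControl replicate 1. Besides Dnajb1, Hspb1, a small heat shock protein, was at 80.7 and 99.6 CPM in siControl and 158 and 146 CPM in siPcgf5. Among long noncoding RNAs, Tug1 was at 94.9 and 119.3 CPM against 57.6 and 69.7 CPM, while the median of the 37 tested was -0.01, or 0.18 without siControl replicate 1. The p53 target Aen, a nuclease, was at 12.1 and 13.5 CPM against 22.4 and 20.1 CPM, with a list median of 0.13 over 28 genes, or 0.05 without siControl replicate 1. Hk2, a hexokinase, was at 4.04 and 1.60 CPM against 1.20 and 0.565 CPM, with a list median of -0.05 over 31 glycolysis genes, or 0.003 without siControl replicate 1.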
